A study of Mus musculus with 6 samples.

Results

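The enzymes that hydroxylate and crosslink collagen were followed in RNA-seq libraries of mouse cardiac fibroblasts. Their 10 genes were picked by symbol from a table of 22063 genes, and this set was proposed with earlier results of these data known. They are the lysyl oxidases Lox, Loxl1, Loxl2, Loxl3 and Loxl4, the lysyl hydroxylases Plod1, Plod2 and Plod3, and the prolyl 4-hydroxylase alpha subunits P4ha1 and P4ha2. The study asked what loss of TET3, an enzyme that oxidises 5-methylcytosine in DNA, does to fibroblasts activated by TGF-β, a cytokine that drives scar formation. All cells came from the hearts of mice with floxed Tet3 alleles (Tet3 f/f) and all received TGF-β. The control group (GFP, 3 libraries) was transduced with an adenovirus coding for green fluorescent protein, and the other group (CRE, 3 libraries) with one coding for Cre recombinase, which excises DNA between loxP sites. The deletion was therefore made in culture, in whichever cells took up the virus, and every value describes cells under TGF-β. The study calls its replicates biological, while the labels give neither the age of the animals nor whether libraries of a group came from separate mice or cultures, so p-values measure the spread between these libraries.

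Collagen is modified in the endoplasmic reticulum before it is secreted. Prolyl 4-hydroxylase, a tetramer of alpha subunits with the protein disulphide isomerase P4HB, makes the 4-hydroxyproline that stabilises the triple helix, and lysyl hydroxylases convert chosen lysines to hydroxylysine. Both use iron, 2-oxoglutarate, oxygen and ascorbate. Outside the cell, the copper-dependent lysyl oxidases turn lysine and hydroxylysine of collagen, and lysine of elastin, into aldehydes that condense into crosslinks, a step associated with stiffening of the fibrotic heart. The annotation deposited with the table gave the same division, with 5 genes of copper ion binding and 5 of L-ascorbic acid binding, a term held by 19 genes of the table. The 5 lysyl oxidases were the only genes in the table with the term protein-lysine 6-oxidase activity, and the 3 Plod genes the only ones with procollagen-lysine 5-dioxygenase activity.

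The libraries held between 17002126 and 20343590 counts, and 12862 genes had enough counts to be tested. In replicate order 1, 2 and 3, which holds for all values listed by library, Tet3 had 1044, 965 and 1000 counts in GFP against 642, 649 and 637 in CRE. In CRE its normalised read count (CPM, counts scaled to library size after TMM correction, which assumes that most genes do not change) was 60.8% of that in GFP (log2 fold change -0.72, SE 0.08, adjusted p = 5.36e-05, edgeR quasi-likelihood test with Benjamini-Hochberg adjustment over all tested genes). The gene was thus lower but present in every CRE library, and a count over the whole gene does not single out the deleted exons. All 10 fibroblast markers looked up were detected, with a summed level of 29761 to 30918 CPM in GFP and 18478 to 19901 CPM in CRE, and 9 of them were lower in CRE (Col1a1, Col1a2, Dcn and Lum are also in the lists described below). Of 12 cardiomyocyte markers 8 had at most 3 counts in any library, with Myh6, Myl3 and Myl7 at 0 in all 6. The only one with enough counts to test, Nppb, was higher in CRE (2, 1 and 3 counts in GFP, 28, 21 and 13 in CRE, adjusted p = 0.000565, edgeR), and the summed level of the 12 lay between 0.789 and 1.20 CPM in GFP and between 1.43 and 2.69 in CRE. Markers of other cell types also moved with the groups, in that 11 of 13 endothelial genes were lower in CRE (summed 512.4 to 570.6 CPM in GFP, 236.3 to 271.4 in CRE). The same was seen for 7 of 12 smooth muscle and pericyte genes, with 1 higher (2143 to 2526 CPM against 1031 to 1182), and for 3 of the 6 tested of 11 macrophage genes (59.1 to 67.1 CPM against 35.0 to 38.2). Their part in the results below was not tested, and in bulk RNA fewer cells of a type and less RNA per cell cannot be told apart.

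Of the 10 enzymes, 8 fell in CRE, 1 rose (Loxl4) and 1 did not pass the test (Loxl1), at an adjusted p under 0.05. Over all tested genes 25.7% were lower and 25.5% higher. Every CRE library was below every GFP library for the 8 that fell, a pattern shown by 29.6% of tested genes, and above for Loxl4, as in 30.0% of tested genes. The groups thus did not overlap for 9 of 10 enzymes, against 59.6% of all tested genes. The median log2 fold change of the enzymes was -0.24 and that of all tested genes 0.01. By family, 3 of 5 lysyl oxidases, 3 of 3 lysyl hydroxylases and 2 of 2 prolyl 4-hydroxylase alpha subunits fell. The extent differed between genes, from 62.3% of the GFP level for Lox to 90.9% for Plod1. With a fold over 1.5 or under 0.66 required as well, 2 enzymes were lower (Lox and P4ha1) and 1 higher (Loxl4), where 9.84% and 7.14% of tested genes were. How libraries were scaled mattered for the small changes. Scaling by library size alone moved the all-gene median to 0.17 (log2), made 72.6% of all calls higher instead of 49.8%, left 4 enzymes lower (Lox, Loxl2, Loxl3 and P4ha1) and 2 higher (Loxl4 and Loxl1), and turned the small difference in Plod1 upward to 0.03.

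**Figure D1:**
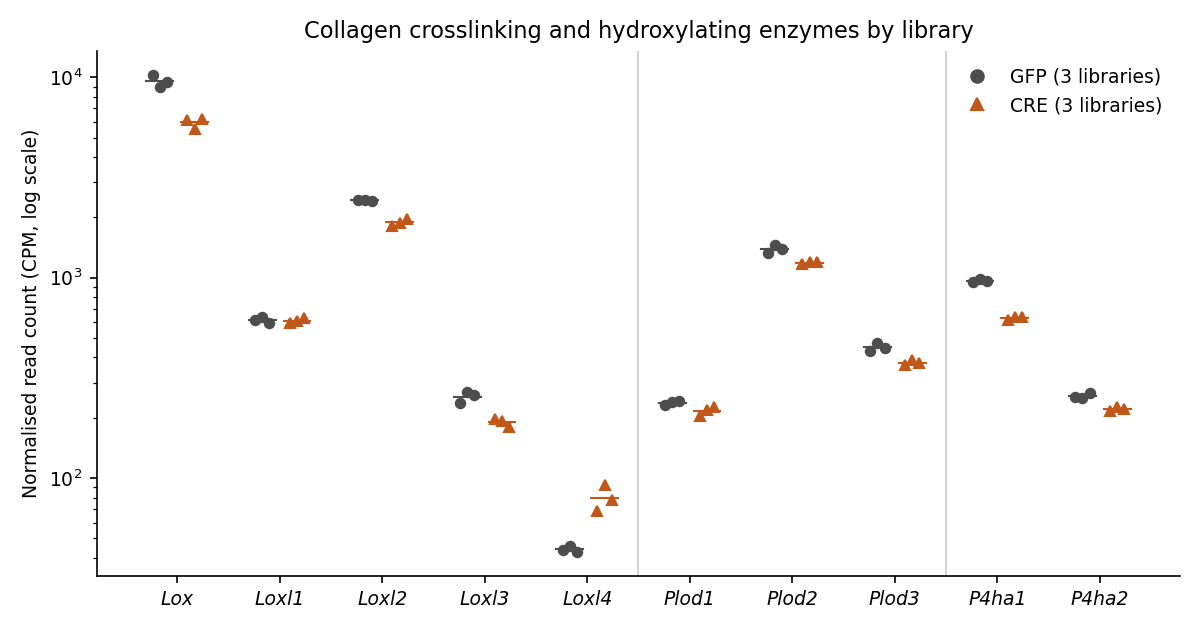
Normalised read count (CPM, log scale) of the 10 enzymes in each of 3 GFP libraries (circles) and 3 CRE libraries (triangles), with bars at the group means. The groups overlap for Loxl1 only, Loxl4 is the single gene higher in CRE, and Lox lies above the other 9 genes in every library.

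The 250 bases before the start site of a gene lie in its promoter, and TET enzymes act on methylated CpG. Windows of this kind are therefore shown for the pair of prolyl 4-hydroxylase subunits that fell by unlike amounts and for the lysyl oxidase that rose. They are RefSeq windows on GRCm38.p6, trimmed to the stretch from 250 to 11 bases before the start, printed 5′ to 3′ on the strand of the gene with each CpG in capitals. P4ha1 lies on chr10:59323046-59323285, plus strand, just before the gene and outside its exons. P4ha2 lies on chr11:54100674-54100913, plus strand, within the gene in GENCODE M21 but outside its exons. Loxl4 lies on chr19:42612817-42613056, minus strand, just before the gene.
P4ha1: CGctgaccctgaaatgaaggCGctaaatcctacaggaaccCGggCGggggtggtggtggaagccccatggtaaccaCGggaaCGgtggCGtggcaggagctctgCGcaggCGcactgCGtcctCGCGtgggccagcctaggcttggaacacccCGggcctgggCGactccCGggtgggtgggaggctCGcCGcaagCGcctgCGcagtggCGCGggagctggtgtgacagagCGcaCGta
P4ha2: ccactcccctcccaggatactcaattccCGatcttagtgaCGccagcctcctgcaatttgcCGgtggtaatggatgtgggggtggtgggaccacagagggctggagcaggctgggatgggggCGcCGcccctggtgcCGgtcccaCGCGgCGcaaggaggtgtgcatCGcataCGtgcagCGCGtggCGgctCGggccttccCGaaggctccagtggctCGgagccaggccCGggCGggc
Loxl4: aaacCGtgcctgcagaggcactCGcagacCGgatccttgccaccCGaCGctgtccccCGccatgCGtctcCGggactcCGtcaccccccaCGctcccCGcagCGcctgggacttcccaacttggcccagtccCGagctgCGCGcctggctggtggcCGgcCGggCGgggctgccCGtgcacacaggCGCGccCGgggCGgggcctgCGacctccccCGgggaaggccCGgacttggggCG
A window was matched for 5 of the 10 enzymes. CpG counts in 240 bases were 23 for P4ha1, 19 for P4ha2, 27 for Loxl4, 15 for Plod1 and 17 for Plod3, where the median over 32851 windows of 27025 genes was 5. All 5 windows were thus above that median, and whether CpG content bears on the direction of change was not tested. Both P4ha1 and P4ha2 held ACGTG, the core of the hypoxia response element, once on either strand, as did Plod3, whereas Loxl4 and Plod1 did not, and 15.9% of all windows held it. GCGTG, the other form of that core, was in all 5 windows (27.1% of all windows), and GGGCGG, the Sp1 box, in all but Plod3 (31.3%). CAGAC, a SMAD-binding core, was in Loxl4 and Plod1 (40.9%) and TATAAA in Plod1 (12.1%). GGAATG, bound by TEAD factors (12.2%), and the AP-1 letters TGANTCA (6.58%) were in none of the 5. These are letters in a short window and not measured binding, and methylation was not analysed here.

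Lox encodes the founding lysyl oxidase and is the enzyme most often tied to collagen and elastin crosslinking. It lies on chr18:52516067-52529867, minus strand (GRCm38, GENCODE M21). Lox had 10325, 8920 and 9489 CPM in GFP, compared with 6142, 5557 and 6209 CPM in CRE. The lowest GFP library stood well above the highest CRE library. The mean was 9578 ± 707 CPM (SD, n = 3) in GFP and 5969 ± 359 in CRE, a log2 fold change of -0.68 (SE 0.06, adjusted p = 1e-05, edgeR). Lox was among the most abundant transcripts of these cells. It ranked 14 of all genes by mean FPKM (fragments per kilobase of transcript, scaled to library size) in GFP, at 1950 ± 141, and 22 in CRE, at 1362 ± 76.4. Lox alone took 0.843% to 0.974% of all counts of a GFP library and 0.590% to 0.657% of a CRE library. It also took more than 50% of the counts of the 10 enzymes in every library, from 50.5% in CRE replicate 2 to 61.3% in GFP replicate 1.

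Loxl2 encodes a lysyl oxidase-like enzyme with scavenger receptor domains that acts on basement membrane and fibrillar collagen (chr14:69609068-69695834, plus strand). Its levels were 2443, 2456 and 2425 CPM in GFP and 1816, 1887 and 1964 CPM in CRE. The GFP libraries agreed within a CV of 0.632%, the tightest of any enzyme, and the groups were far apart. The log2 fold change was -0.37 (SE 0.04, adjusted p = 4.4e-05, edgeR), 77.4% of GFP. Loxl3, which shares the scavenger receptor domains, had 236.4, 268.3 and 259.8 CPM in GFP and 196.7, 193.4 and 180.4 CPM in CRE. It fell by 0.42 on the log2 scale (SE 0.06, adjusted p = 0.000165, edgeR). Loxl3 (chr6:83034173-83052562, plus strand) is on the same chromosome as Tet3, with 309811 bases between them. Its exons share 535 bases with those of Htra2 on the opposite strand, which fell by 0.40 (SE 0.07, adjusted p = 0.000895, edgeR) from 32.6 to 24.7 CPM. Whether counting used the strand is not given in the sources used here, so the split of reads between Loxl3 and Htra2 is uncertain.

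Loxl4 was the only lysyl oxidase, and the only one of the 10 enzymes, that rose with TMM scaling. It too has scavenger receptor domains and lies on chr19:42593982-42612813, minus strand. Counts were 705, 810 and 825 in GFP and 1270, 1672 and 1470 in CRE, or 43.8, 45.7 and 42.9 CPM against 68.2, 92.6 and 77.6 CPM. The GFP libraries lay close together and every CRE library was above them, with a wide spread among CRE libraries (CV 15.5%, the largest of any enzyme). The mean rose from 44.1 ± 1.42 to 79.5 ± 12.3 CPM, 180% of GFP (log2 fold change 0.85, SE 0.10, adjusted p = 5.1e-05, edgeR). It was also the least abundant enzyme, at 11.5 ± 0.424 FPKM in GFP and 23.3 ± 3.81 in CRE.

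Loxl1, which is needed for elastic fibre upkeep (chr9:58287738-58313186, minus strand), did not pass the test. It had 614.5, 639.7 and 595.7 CPM in GFP and 591.4, 611.5 and 627.1 CPM in CRE. The ranges overlapped almost entirely. The log2 fold change was -0.02 (SE 0.04, adjusted p = 0.793, edgeR) with a 95% interval from -0.11 to 0.08, so a change of the size seen in Loxl2 or Loxl3 lay outside the interval under this scaling. With library size alone the estimate was 0.15 and passed the threshold (adjusted p = 0.0168, edgeR).

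The lysyl hydroxylases all fell with TMM scaling, by between 0.14 and 0.26 on the log2 scale, but with library size alone none passed and Plod1 turned upward. They lie on chr4:147909753-147936767, minus strand (Plod1), chr9:92542223-92608428, plus strand (Plod2), and chr5:136987019-136996648, plus strand (Plod3). Plod2 encodes the enzyme that hydroxylates the telopeptides, the collagen ends where crosslinks form, and it was the most abundant of the 3. Plod2 had 1328, 1455 and 1388 CPM in GFP and 1171, 1192 and 1194 CPM in CRE, a log2 fold change of -0.23 (SE 0.04, adjusted p = 0.00145, edgeR). Plod3, whose protein also carries glycosyltransferase activity, had 430.1, 474.5 and 446.5 CPM in GFP and 365.1, 390.4 and 375.2 CPM in CRE (log2 fold change -0.26, SE 0.05, adjusted p = 0.00157, edgeR). In both genes the CRE libraries lay together below the GFP libraries, with no overlap. Plod1, which hydroxylates lysines of the helix, had 233.0, 239.3 and 241.4 CPM in GFP and 204.5, 218.5 and 226.0 CPM in CRE. Its log2 fold change of -0.14 (SE 0.05, adjusted p = 0.0351, edgeR) was the smallest of those that passed, and the call was lost without GFP replicate 2 or 3 or without CRE replicate 1 or 2 (adjusted p up to 0.154, edgeR). Plod2 and Plod3 passed in each of the 6 fits that left out 1 library, and neither passed with library size alone (-0.07 and -0.09). Plod3 exons share 529 bases with Znhit1 on the opposite strand, a gene at 18.7 CPM in GFP and 16.1 in CRE that did not pass the test. Genes annotated on the opposite strand also share exon bases with Plod2 (346 bases, Gm38391, a locus of unproven status), Loxl2 (301 bases, Gm27177) and Lox (30 bases, an antisense gene), and were not analysed here.

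The prolyl 4-hydroxylase alpha subunits fell by unequal amounts. P4ha1 (chr10:59323296-59373304, plus strand), the major alpha subunit of most cells, had 948.4, 980.3 and 967.8 CPM in GFP and 616.2, 638.5 and 635.3 CPM in CRE. The libraries of a group lay close together (CV 1.67% in GFP and 1.92% in CRE) and the groups were far apart. The log2 fold change was -0.62 (SE 0.04, adjusted p = 1.4e-06, edgeR), 65.3% of GFP, close to that of Lox. P4ha2 (chr11:54100095-54131665, plus strand), the alternative alpha subunit, had 253.2, 252.4 and 266.0 CPM in GFP and 216.9, 226.6 and 220.4 CPM in CRE. Its difference of -0.22 (SE 0.04, adjusted p = 0.0020, edgeR) was apart in every library but fell short of the threshold with library size alone (-0.05). An exact permutation test over the 6 libraries gave 0.1, the smallest p that 3 against 3 allows, for 9 enzymes and 0.7 for Loxl1.

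**Figure D2:**
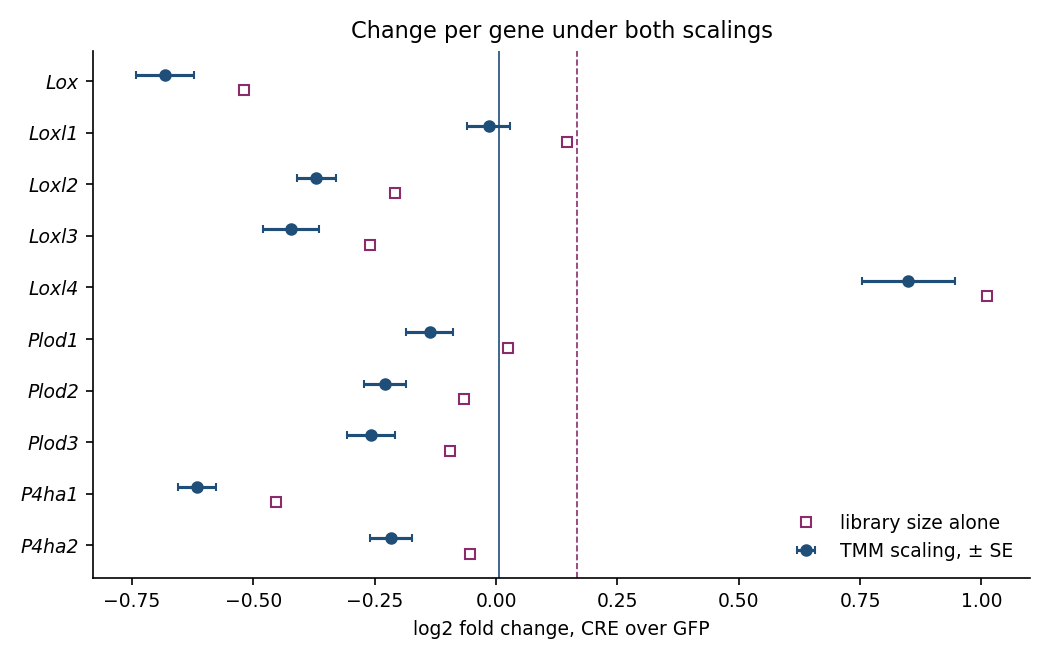
Log2 fold change of each enzyme, CRE over GFP, with TMM scaling (filled circles, bars are the SE) and with library size alone (open squares). The solid and dashed vertical lines mark the median of all tested genes under either scaling (0.01 and 0.17). Lox, Loxl2, Loxl3, Plod2, Plod3, P4ha1 and P4ha2 lie left of 0 and Loxl4 right of 0 under both, while Loxl1 and Plod1 change sign.

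Per length of transcript, the order of the 10 enzymes was the same in both groups. By mean FPKM in GFP it ran Lox (1950), Loxl2 (446.6), Plod2 (358.6), P4ha1 (294.8), Loxl1 (176.7), Plod3 (133.4), P4ha2 (110.0), Plod1 (70.7), Loxl3 (58.8) and Loxl4 (11.5). No 2 neighbours in this order overlapped in either group. The gaps themselves shifted in CRE. P4ha1 (217.9 FPKM) came down to 1.11 times Loxl1 (195.6 FPKM), from 1.67 times in GFP, and Loxl3 from 5.10 to 2.10 times Loxl4. The length that the deposited FPKM values imply, the count divided by the FPKM and the library total, changed little in every enzyme (ratio CRE to GFP at least 0.988 and none above 1, where the middle 90% of 9419 genes spanned 0.945 to 1.06). Its groups did not overlap for 5 enzymes (15.1% of the 9419 genes), of which P4ha1 had the largest shift, from 3.09 to 3.06 kb. The other 4 lay closer to a ratio of 1 than P4ha1. Among those 4 was Loxl1, annotated with 1 transcript, at a ratio of 0.999997, so groups apart in this value need not mean a change of transcript length.

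The make-up of a family within a library does not depend on how libraries are scaled. Lox made up 73.7% ± 1.67 of the summed FPKM of the lysyl oxidases in GFP and 67.5% ± 1.55 in CRE, with every CRE library below every GFP library. The share of Loxl1 went from 6.70% to 9.71%, that of Loxl2 from 16.9% to 19.2% and that of Loxl4 from 0.437% to 1.16%, each apart in every library. Loxl3 kept overlapping shares (2.23% and 2.44%). P4ha1 gave 72.8% ± 0.745 of the summed FPKM of P4ha1 and P4ha2 in GFP and 67.0% ± 0.401 in CRE, the remainder being P4ha2. The minor alpha subunit P4ha3 was not in this sum. Among lysyl hydroxylases Plod2 held 63.7% in GFP and 63.3% in CRE and Plod3 23.7% and 23.3%, both with overlapping groups, and Plod1 went from 12.6% to 13.4% with no overlap, as did the count ratio of Plod3 to Plod1 (1.89 ± 0.078 in GFP, 1.74 ± 0.073 in CRE). The lead of Lox within its family and that of P4ha1 over P4ha2 were thus smaller in CRE, and Plod1 took a slightly larger share of the lysyl hydroxylases.

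**Figure D3:**
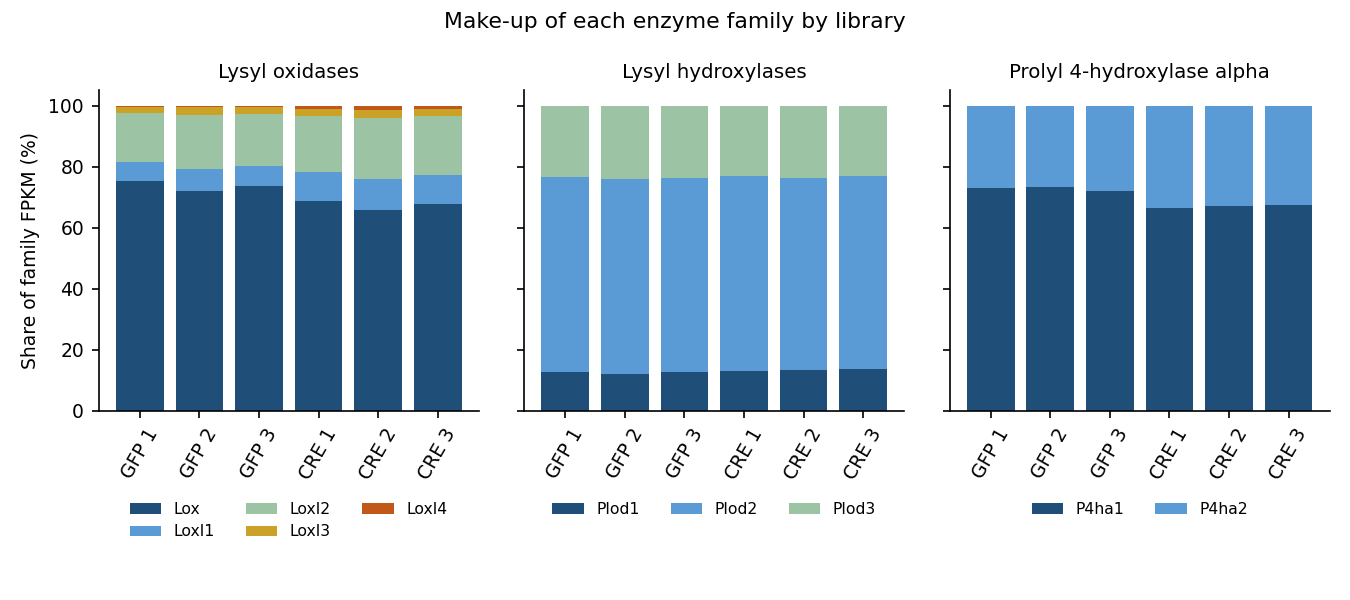
Share of each gene in the summed FPKM of its family (%), stacked to 100 for each of the 6 libraries, with lysyl oxidases at the left, lysyl hydroxylases in the middle and prolyl 4-hydroxylase alpha subunits at the right. The sum at the right holds P4ha1 and P4ha2 and leaves out P4ha3. Lox takes 72.0% to 75.4% in GFP and 65.8% to 68.8% in CRE, P4ha1 takes 72.0% to 73.5% and 66.6% to 67.4%, and Plod1 takes 12.2% to 12.8% and 13.0% to 13.8%.

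Ratios of raw counts within a library set the enzymes against their partners and substrates, again free of scaling. P4ha1 to P4ha2 was 3.74, 3.88 and 3.64 in GFP and 2.84, 2.82 and 2.88 in CRE. P4hb, the beta subunit, fell by 0.49 on the log2 scale (SE 0.04, adjusted p = 6.9e-06, edgeR), from 2376 to 1695 CPM. The ratio of P4ha1 to P4hb was therefore only a little lower in CRE (0.372 ± 0.007 against 0.406 ± 0.007), whereas that of P4ha2 to P4hb was higher (0.131 ± 0.004 against 0.108 ± 0.005), with groups apart in both. Loxl4 to Lox rose from 0.00463 ± 0.000447 to 0.0134 ± 0.00289.

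Substrates changed by unlike amounts relative to Lox. The ratio of Lox to Col1a1, the alpha 1 chain of collagen I, was 0.726, 0.655 and 0.711 in GFP and 0.780, 0.680 and 0.714 in CRE, with overlapping groups, since Col1a1 fell by 0.74 (SE 0.05, adjusted p = 1.1e-06, edgeR). Lox to Col3a1, collagen III, was higher in CRE (1.45 ± 0.120 against 0.990 ± 0.182). Lox to Eln, the elastin precursor, was 21.7, 27.7 and 23.9 in GFP and 66.3, 80.9 and 75.6 in CRE. Elastin itself fell by 2.30 on the log2 scale (SE 0.14, adjusted p = 1.1e-06, edgeR), from 476.6, 322.6 and 396.7 CPM in GFP to 92.6, 68.7 and 82.1 CPM in CRE. Loxl1 to Eln went from 1.59 ± 0.355 to 7.64 ± 1.26, and Plod2 to Col1a1 from 0.101 ± 0.007 to 0.144 ± 0.006, with no overlap in either. Lox thus kept its proportion to Col1a1 within the spread of the libraries, and it fell less than Col3a1 and Eln.

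**Figure D4:**
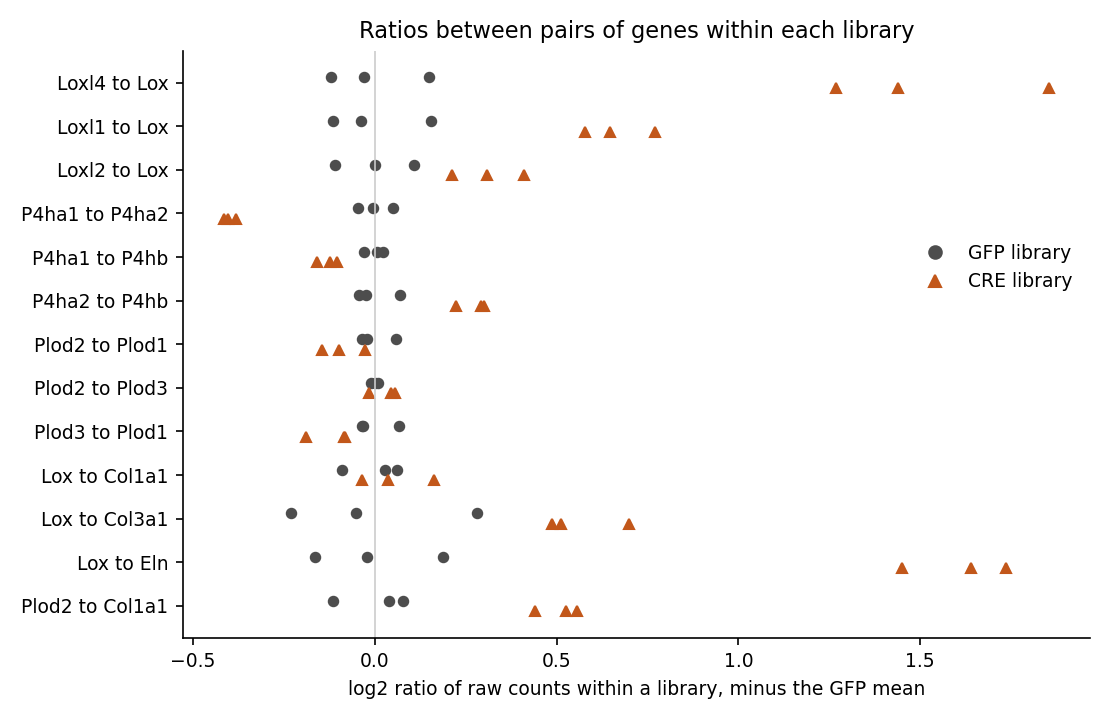
Log2 ratio of raw counts of 2 genes within each library, minus the mean of the GFP libraries, for GFP (circles) and CRE (triangles). P4ha1 to P4ha2 and Plod3 to Plod1 are lower in CRE and Loxl4 to Lox, Loxl1 to Lox and Lox to Eln are higher, while Plod2 to Plod1, Plod2 to Plod3 and Lox to Col1a1 overlap.

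Genes that work beside the enzymes were taken as lists. The list of partners and other collagen-modifying enzymes, in which the kinases Fam20b and Fam20c were also placed, had 14 tested genes. Of these 9 fell, 2 rose and 3 did not pass (25.7% and 25.5% of all tested genes fell and rose). The median log2 fold change was -0.24 where that of all tested genes was 0.01. With library size alone 6 fell and 2 rose, where 16.2% of all tested genes were lower and 43.0% higher. With TMM scaling the lowest were the collagen chaperone Serpinh1 (-0.68, SE 0.04), P4hb and the prolyl 3-hydroxylase P3h3 (-0.40, SE 0.05). Crtap, a scaffold of the prolyl 3-hydroxylase complex, and the chaperone Fkbp10, which acts with lysyl hydroxylase, fell by 0.22 (SE 0.05) and 0.21 (SE 0.04), whereas the xylose kinase Fam20b rose by 0.38 (SE 0.04). The kinase Fam20c was the other gene that rose (0.32, SE 0.11), with overlapping groups, and its call was lost without GFP replicate 2, GFP replicate 3 or CRE replicate 1 (adjusted p = 0.108, 0.0975 and 0.128, edgeR). P4ha3, the minor alpha subunit, fell from 67.1 to 56.2 CPM (-0.26, SE 0.06, adjusted p = 0.0067, edgeR).

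Of 14 crosslinking substrates 12 fell and none rose, with a median of -0.57. Eln and Col3a1 (-1.25, SE 0.08) fell most among the abundant ones, and Col2a1 (-2.31, SE 0.39) stood below 2 CPM in GFP. Col4a1 (-0.44), Col4a2 (-0.41) and Col6a1 (-0.24) fell least of those that passed, and Col6a2 (-0.14) and Col6a3 (-0.21) did not pass. Without GFP replicate 1 both passed (-0.23 and -0.37, adjusted p = 0.0119 and 0.0267, edgeR), so that 14 of 14 were lower. Among 17 tested genes of procollagen processing and fibril assembly 15 fell and 1 rose, with a median of -0.54. Postn, a matricellular protein that assists Lox activation, fell by 1.79 (SE 0.04), from 2008 to 582.6 CPM, and the fibril-binding proteoglycan Lum fell by 1.46 (SE 0.09). The transglutaminase Tgm1 fell too (-1.37, SE 0.39) but lay below 1 CPM in the mean of either group. Sparc, a collagen-binding protein, and Fbln5, which assembles elastic fibres, fell by 0.31 (SE 0.03) and 0.25 (SE 0.05). Adamts3, a procollagen N-proteinase, rose by 0.96 (SE 0.21) at 2.76 to 5.40 CPM. Bmp1, the protease that releases the Lox propeptide, was at 873.2 ± 52.4 CPM in GFP and 897.8 ± 35.2 in CRE (0.04, adjusted p = 0.554, edgeR).

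Genes that supply cofactors, together with other 2-oxoglutarate dioxygenases, held 7 of 15 lower, 4 higher and a median of -0.15. With TMM scaling 25.7% of all tested genes were lower and 25.5% higher. With library size alone 2 of the list were lower and 4 higher, where 16.2% of all tested genes were lower and 43.0% higher. Atp7a, the pump that loads copper onto secreted enzymes such as Lox, fell from 54.7 to 43.7 CPM (-0.33, SE 0.05), while the copper chaperone Atox1 (0.27, SE 0.10) and the ascorbate transporter Slc23a2 (0.27, SE 0.05) rose. The HIF asparaginyl hydroxylase Hif1an rose by 0.36 (SE 0.06), and Aspscr1, placed in this list although its product is a tether of glucose transporters, fell by 0.35 (SE 0.10). The HIF prolyl hydroxylase Egln3 fell by 1.07 (SE 0.10) and is also in the hypoxia list, as are Egln1 and Slc2a1.

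P4ha1, P4ha2, Plod2 and Lox are known hypoxia-inducible genes. Of 18 tested hypoxia response genes 17 fell and none rose, with a median of -0.67 (25.7% of all tested genes fell and 25.5% rose). With library size alone 12 of the list fell and none rose, where 16.2% of all tested genes were lower and 43.0% higher. With TMM scaling the peptide hormone Adm fell by 1.55 (SE 0.08) and Ndrg1, a stress-responsive gene, by 1.21 (SE 0.09). The smallest falls that passed were those of Vegfa (-0.23, SE 0.07), Egln1 (-0.23, SE 0.04) and Pfkfb3 (-0.18, SE 0.05). Hif1a, the oxygen-regulated subunit of the factor, had 1502, 1649 and 1616 CPM in GFP and 842.4, 956.9 and 1025 CPM in CRE (-0.76, SE 0.07, adjusted p = 1.2e-05, edgeR), and was named after its value was seen. Levels of HIF protein and oxygen in the cultures were not analysed here.

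**Figure D5:**
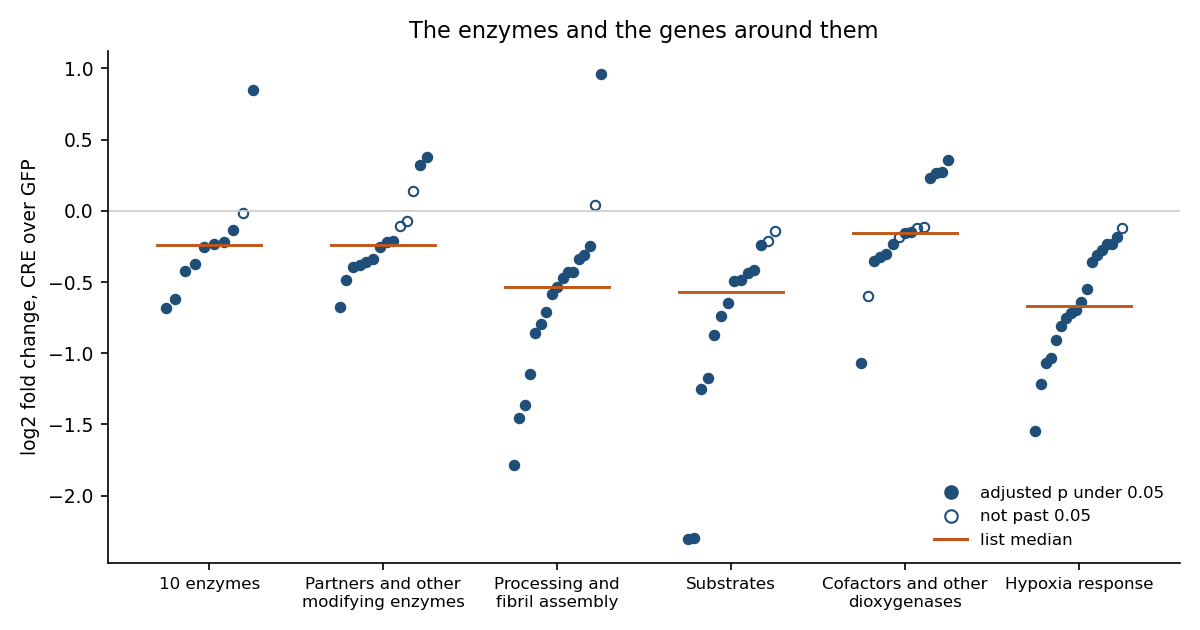
Log2 fold change, CRE over GFP, of the 10 enzymes and of the tested genes in 5 lists around them, 1 point per gene, filled where the adjusted p is under 0.05, with a bar at each list median. The medians are -0.24 for the enzymes and for their partners, -0.54 for processing and fibril assembly, -0.57 for substrates, -0.15 for cofactors and -0.67 for the hypoxia response.

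The profiles of the enzymes over the 6 libraries were alike for most pairs, with a median Pearson r of 0.87 over 45 pairs on log2 CPM, which mainly restates the shared difference between groups. Within groups, the deviations of libraries from their group mean had a median r of 0.42 and ranged from -0.93 to 0.90, with 33 of 45 above 0. The lowest was that of Lox with Plod3, and no pair with Lox exceeded the 0.03 of Lox with Loxl2. Likeness was sought among the 8798 genes whose mean reached 10 CPM. Those most like Lox were Lars, Tkt and Mtus1 (each r = 0.999), and 1098 of the 8798 reached an r of 0.95 with it. Those most like Loxl4 were 9930021J03Rik (r = 0.998), Ubxn2b (0.997) and Proser1 (0.997), with 572 genes at 0.95. All of these points share the same 6 libraries and the same scaling.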

How the data were processed

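Groups and replicate numbers came from the sample titles. Per the methods of the study, reads were trimmed (Trimmomatic), mapped to GRCm38 (HISAT2) and assigned to genes (HTSeq-count) by the authors. Raw counts per gene were deposited unnormalised, beside FPKM values. The study names Cufflinks for its FPKM. For Loxl1, however, the deposited counts, FPKM and library totals gave 3.297 kb in every library, the annotated transcript length of 3297 bases. How the deposited FPKM were computed was therefore not settled here. The log2 fold changes (of group mean FPKM), p-values and false discovery rates deposited by the authors were not used. The sources name different RNA and library kits. Genes passing filterByExpr (minimum count 10, minimum total 15) were fitted together in edgeR 4.0.16 (R 4.3.3) with TMM factors of 0.944 to 0.947 for GFP and 1.05 to 1.06 for CRE, and tested two-sided by the quasi-likelihood test with Benjamini-Hochberg adjustment. The SE is the absolute log2 fold change over the square root of F. FPKM tests used a pseudocount of 1. Between 17002126 and 20343590 counts per library gave every enzyme at least 705 counts. Coordinates are from GENCODE M21 and promoter windows from RefSeq (GRCm38.p6), and protein sequences were not analysed here. The enzymes and gene lists were chosen with earlier results of these data known. Named are the 10 enzymes, Tet3, the 3 highest and 3 lowest genes of each list that passed without overlap, and the 3 genes most like Lox and Loxl4. Others, such as P4ha3, Bmp1 and Hif1a, were chosen after their values were seen. Alternatives were RLE, library size alone and upper-quartile scaling, looser and stricter filters, DESeq2 1.42.0, limma-voom and limma 3.58.1 on log2(FPKM + 1), a replicate block, each library left out, and other thresholds.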

Additional observations from a re-analysis of the deposited data

How the results depend on the processing

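Lox, Loxl2, Loxl3, Loxl4 and P4ha1 kept their direction and passed in 15 of 15 alternatives, and Plod2, Plod3 and P4ha2 in 13 of 15. The call of Plod1 held in 8 of 15. With library size alone 4 enzymes were lower and 2 higher, with 16.2% of tested genes lower and 43.0% higher. Limma on log2(FPKM + 1) also gave 4 and 2, with 14.9% and 38.7%. Under these 2 settings Loxl1 turned to 0.15 in both and Plod1 to 0.03 in both (0.025 and 0.033). The processing list held 2 higher genes in both, and the cofactor list 2 and 1 lower genes. Lower genes numbered 12 in both for the hypoxia list, 6 in both for the partners, 11 in both for the substrates, and 14 and 12 for the processing list. Library size alone differs only in leaving out the TMM factors, while limma on log2(FPKM + 1) also changes the unit and the test. Which of these moved the counts of the limma fit was not tested. Upper-quartile scaling turned Loxl1 to 0.0035 and left Plod1 at an adjusted p of 0.0646 (edgeR). A fold of 1.5 or 0.66 beside the threshold left 2 enzymes lower (Lox and P4ha1) and 1 higher, with 9.84% of tested genes lower and 7.14% higher.

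Leaving out each library in turn gave 7 to 8 enzymes lower and 1 higher, with 22.1% to 25.3% of tested genes lower and 21.0% to 24.6% higher. Loxl1 then lay between -0.041 and 0.011, positive without GFP replicate 2 (0.0093) or CRE replicate 1, and higher partner genes numbered 1 to 2, with 1 without GFP replicate 2, GFP replicate 3 or CRE replicate 1, where Fam20c lost its call. Counts per kilobase of the longest transcript put Plod2 at 66.0% of its family in GFP and 65.9% in CRE. They put P4ha1 at 74.0% and 68.3% of its sum with P4ha2. Same-numbered libraries deviated together with r of 0.046, 0.18 and -0.018, and differently numbered ones with r of -0.12 to 0.071. The labels do not say whether the numbers pair the samples, and these values cannot decide it, since all are weak. A replicate block left 8 enzymes lower and 1 higher, and 14 of 14 substrates lower (Col6a2 at an adjusted p of 0.0267 and Col6a3 at 0.0380, edgeR). For a change as small as that of Plod1, the scaling and the choice of libraries both decided the call.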
